A study of Mus musculus with 10 samples.

Results

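The genes described here are 9 genes of the transforming growth factor beta (TGF beta) pathway, followed through a time course of mouse reprogramming. They are the ligands Tgfb1, Tgfb2 and Tgfb3, the receptors Tgfbr1, Tgfbr2 and Tgfbr3, the signal transducers Smad3 and Smad7, and the target gene Ctgf, which newer annotation calls Ccn2. They were taken by gene name from the table of all 48476 genes, and all 9 were found. The cells were mouse embryonic fibroblasts (MEFs) of embryonic day 13.5 from the CBA/CaJ X C57BL/6J background, and by the study's methods they carried an Oct4-GFP reporter. All of them received retroviruses, packaged in PlatE cells, for Oct4, Klf4 and Sox2 (OKS). By the study's methods, MEFs were kept in medium with serum, and iCD1 medium was used for induction after the infections. Whether the day 0 libraries were taken before that change of medium is not stated. The course from day 0 and a change of medium can therefore not be told apart. The control arm received DsRed, a red fluorescent protein, as a further factor (OKS + DsRed, labelled OKS+DR). The other arm received the forkhead transcription factor FoxO6 (OKS + FoxO6). Each arm gave 1 library of total RNA at each of days 0, 1, 3, 5 and 7, which makes 10 libraries with no replicate of any arm and day.

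TGF beta ligands are secreted in a latent form and are released outside the cell. The active ligand binds the type II receptor Tgfbr2, which recruits and phosphorylates the type I receptor Tgfbr1, and this kinase phosphorylates Smad2 and Smad3, which enter the nucleus with Smad4 and switch on genes of the matrix and the cytoskeleton. The pathway keeps fibroblasts mesenchymal, and it is known as a barrier to the mesenchymal to epithelial transition by which fibroblasts start reprogramming.

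The libraries held between 1208379 and 2225750 expected counts, so genes of low level were measured from few reads. Foxo6 checked the labels, with a TPM (a share of all transcripts in the library, corrected for transcript length) of at most 2.29 in the OKS + DsRed libraries and between 762.11 and 1356 in the OKS + FoxO6 libraries, day 0 included. The markers of the starting cell type, 11 fibroblast genes, were all above 0 in all libraries. Their summed TPM lay between 787.81 and 5449 in OKS + DsRed and between 1175 and 4836 in OKS + FoxO6. Cdh1 (E-cadherin) reached a TPM of 200.7 in OKS + DsRed at day 7 and 28.9 in OKS + FoxO6, and the pluripotency gene Nanog reached 58.4 and 8.31. In bulk RNA, fewer cells of a type and less RNA per cell cannot be told apart, and this holds for all values below.

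Of the 9 genes, Tgfbr2 and Ctgf were higher in OKS + FoxO6 over the 5 days, and none was lower. The shift between the arms was tested on the counts of all 10 libraries with the quasi-likelihood test of edgeR, in a model that also held the day, and p-values were adjusted over the 10977 genes tested. A gene was called at an adjusted p under 0.05. The 2 genes called higher are of 8 that entered the test, and over all genes 6.93% were called higher and 7.13% were called lower. From day 0 to day 7, taken over both arms in the same fit, Tgfb1, Tgfb3, Smad7 and Ctgf fell and none rose, where 10.1% of all genes were called lower and 11.2% higher. The difference between the arms did not change per day past the threshold in any of the 8 genes, where 1.21% of all genes were called for an increase and 0.765% for a decrease. Tgfbr3 had too few reads to enter the tests. The spread in these tests is that of the within-day differences of 1 pair of time courses, and 1 infected culture may have given all 5 days of an arm.

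**Figure D1:**
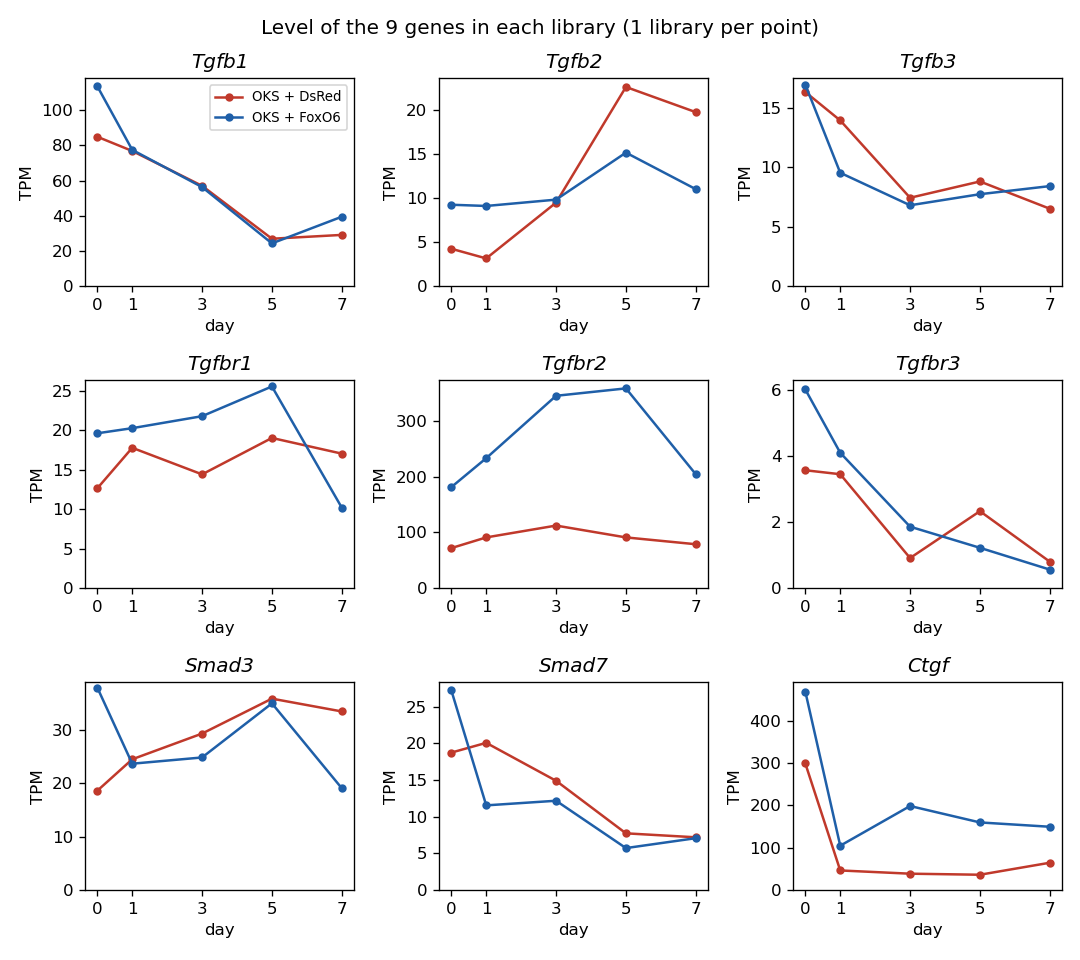
TPM of the 9 genes on the vertical axis against day on the horizontal axis, with 1 point per library, OKS + DsRed in red and OKS + FoxO6 in blue, and a separate vertical scale for each gene. The lines of the arms stay apart on all days for Tgfbr2 and Ctgf, and they cross or touch for Tgfb1, Tgfb2, Tgfb3, Tgfbr1, Tgfbr3, Smad3 and Smad7.

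Among the ligands, Tgfb1 was the most abundant in each library and it fell over the course, taken over both arms. Tgfb1 (ENSMUSG00000002603), at 25687002 to 25705077 of chromosome 7 (GRCm38, plus strand), encodes the main TGF beta ligand of fibroblasts. Its TPM was 84.96, 76.87, 57.04, 26.93 and 29.11 on days 0, 1, 3, 5 and 7 in OKS + DsRed. In OKS + FoxO6 it was 113.7, 77.51, 56.33, 24.29 and 39.45 on the same days. The arms ran within 1 TPM of each other on days 1 and 3, and the OKS + FoxO6 library was the higher of the pair on days 0 and 7. The log2 fold change of day 7 against day 0 was -1.49 (SE 0.23, adjusted p = 0.00085 in edgeR), a level 2.81-fold lower at day 7. Between the arms it was 0.13 (SE 0.147, adjusted p = 0.639 in edgeR), with OKS + FoxO6 higher in TPM on 3 of 5 days. Ratios between the arms were also taken in CPM, which is counts scaled to library size, with 95% exact binomial intervals that cover counting error only. For Tgfb1 the interval excluded 1 at day 7 alone, where the ratio was 1.49 (1.05 to 2.13).

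Tgfb2 (ENSMUSG00000039239), at 186622792 to 186705989 of chromosome 1 (minus strand), encodes a ligand whose binding to Tgfbr2 is helped by the co-receptor Tgfbr3. Its TPM was 4.24, 3.14, 9.48, 22.62 and 19.76 on the 5 days in OKS + DsRed, and 9.24, 9.10, 9.82, 15.16 and 11.01 in OKS + FoxO6. In TPM, the OKS + DsRed libraries of days 5 and 7 were above all others, and those of days 0 and 1 were below all others. The log2 fold change of day 7 against day 0 was 1.17 (SE 0.400, adjusted p = 0.0594 in edgeR), and that between the arms was -0.20 (SE 0.269, adjusted p = 0.698). On CPM the ratio between the arms was 2.27 at day 0 (counting interval 1.16 to 4.85) and 0.666 at day 7 (0.458 to 0.958). The CPM ratio of day 7 to day 0 was 4.82 (2.57 to 10.02) in OKS + DsRed, against 1.42 (0.927 to 2.16) in OKS + FoxO6. The difference between the arms changed by -0.18 per day on the log2 scale, which did not pass the test (adjusted p = 0.276 in edgeR). These values rest on 11 to 86 expected counts per library. Day 1 differed between the units, since the difference between the arms was 1.29 in log2(TPM + 1) and -0.12 in log2 CPM. Both libraries held 12 expected counts of Tgfb2 at day 1, while the effective transcript length estimated for the gene was 1603 in OKS + FoxO6 and 5056 in OKS + DsRed. At day 3 the difference was 0.05 in log2(TPM + 1) and -0.66 in log2 CPM. The estimated length there was 1880 in OKS + FoxO6 and 3181 in OKS + DsRed.

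Tgfb3 (ENSMUSG00000021253), at 86056745 to 86079041 of chromosome 12 (minus strand), encodes the third ligand. It had a TPM of 16.31, 13.92, 7.42, 8.79 and 6.50 in OKS + DsRed, against 16.93, 9.52, 6.79, 7.72 and 8.40 in OKS + FoxO6. Both arms were highest at day 0, and the ranges of the arms overlapped. The gene fell between day 0 and day 7 by 1.12 on the log2 scale (SE 0.338, adjusted p = 0.0363 in edgeR). This call was lost in DESeq2 (adjusted p = 0.227) and without day 3 (0.053) or day 5 (0.0555) in edgeR, and over all alternatives the adjusted p lay between 0.0262 and 0.227. The log2 fold change between the arms was -0.12 (SE 0.221, adjusted p = 0.784).

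Summed over the 3 ligands, the TPM was 105.5, 93.9, 73.9, 58.3 and 55.4 on the 5 days in OKS + DsRed, and 140, 96.1, 72.9, 47.2 and 58.9 in OKS + FoxO6. Tgfb1 made up 80.5% of this sum at day 0 in OKS + DsRed and 81.3% in OKS + FoxO6, and 52.6% and 67.0% at day 7. Tgfb2 went from 4.02% to 35.7% of the sum in OKS + DsRed and from 6.61% to 18.7% in OKS + FoxO6. The share of Tgfb1 was thus lower and that of Tgfb2 higher at day 7 than at day 0 in both courses, with the larger share of Tgfb2 at day 7 in the OKS + DsRed library. In TPM, Tgfb2 went from 4.24 to 19.76 in OKS + DsRed and from 9.24 to 11.01 in OKS + FoxO6. Tgfb1 went from 84.96 to 29.11 and from 113.7 to 39.45. These shares have no replicate check.

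**Figure D2:**
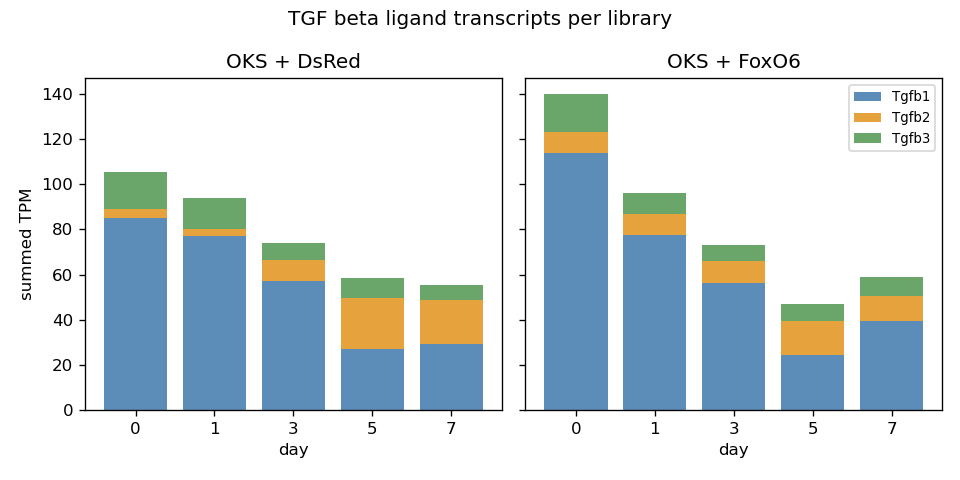
Stacked bars of the TPM of Tgfb1, Tgfb2 and Tgfb3 (vertical axis, summed TPM) in each library, by day (horizontal axis), with 1 panel per arm. Between day 0 and day 7 the sum went from 105.5 to 55.4 in OKS + DsRed and from 140 to 58.9 in OKS + FoxO6.

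Of the receptors, Tgfbr2 showed the largest difference between the arms, and all 5 OKS + FoxO6 libraries were above all 5 OKS + DsRed libraries. Tgfbr2 (ENSMUSG00000032440), the type II receptor that binds the ligand and starts the signal, lies at 116084293 to 116175360 of chromosome 9 (minus strand). Its TPM was 71.89, 91.09, 112.4, 91.10 and 78.83 on the 5 days in OKS + DsRed, from 273 to 418 expected counts. In OKS + FoxO6 it was 181.5, 233.6, 345.8, 359.1 and 204.7, from 956 to 1845 expected counts. The highest OKS + DsRed library was day 3 and the lowest OKS + FoxO6 library was day 0, with a clear gap between them. The shift between the arms was 1.50 on the log2 scale (SE 0.150, adjusted p = 0.000164 in edgeR), a 2.84-fold higher level in OKS + FoxO6. Among the 10977 genes tested, 98 had a higher shift. Under the 10 alternative settings that were tried the shift lay between 1.40 and 1.64 and was called in each.

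Day by day, the ratio of Tgfbr2 in CPM, OKS + FoxO6 over OKS + DsRed, was 1.93, 2.36, 3.05, 3.82 and 3.44 in the order of the days. The counting intervals ran from 1.69 to 2.22 at day 0 and from 3.39 to 4.32 at day 5, and did not overlap. As a change of the log2 difference per day this was 0.13 (adjusted p = 0.112 in edgeR), which did not pass the threshold. In log2(TPM + 1) the differences were 1.32, 1.35, 1.61, 1.97 and 1.37 on the 5 days. Genes of the same transcript length had a median difference of 0.31 at day 0 and -0.45 at day 7, and with that median taken off the Tgfbr2 difference was 1.02 at day 0 and 1.82 at day 7. Over both arms, day 7 against day 0 gave a log2 fold change of 0.16 (SE 0.234, adjusted p = 0.700). By arm, the direction depended on the unit. In CPM the ratio of day 7 to day 0 was 0.836 (counting interval 0.713 to 0.981) in OKS + DsRed and 1.49 (1.36 to 1.62) in OKS + FoxO6, while in log2(TPM + 1) the change was 0.13 and 0.17, higher in both.

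The sequence before the start of Tgfbr2 is shown because this gene had the largest shift between the arms of the 8 tested. It is the stretch of 250 bases before the RefSeq start, chr9:116175364-116175613 of GRCm38.p6 on the minus strand, with 58.4% GC.
Tgfbr2 promoter: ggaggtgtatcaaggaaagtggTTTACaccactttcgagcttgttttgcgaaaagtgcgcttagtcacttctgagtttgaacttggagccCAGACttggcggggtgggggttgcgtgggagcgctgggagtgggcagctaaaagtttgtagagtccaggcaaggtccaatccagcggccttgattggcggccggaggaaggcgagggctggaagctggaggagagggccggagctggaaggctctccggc
The capitals mark TTTAC, the reverse complement of the forkhead core GTAAA, at position -228 from the start, and CAGAC, the Smad binding element, at position -160. Both strands were searched, also for the longer forkhead motif GTAAACA, the TEAD motif GGAATG and the AP-1 motif TGAGTCA, of which this window holds no match, and the forkhead core is contained in the longer motif. Over 32851 RefSeq promoter windows of this length, GTAAA was found in 28.3%, CAGAC in 42.2%, GGAATG in 12.6%, TGAGTCA in 4.46% and GTAAACA in 3.17%. Of the other genes with an entry, the first of the 2 Tgfbr1 windows held GTAAA, the second held CAGAC, the Tgfb2 window held CAGAC at 2 places, and those of Tgfb1 and Smad3 held none of these motifs. A match of this kind is a match of letters, and binding was not measured.

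Tgfbr1 (ENSMUSG00000007613), at 47353222 to 47414931 of chromosome 4 (plus strand), encodes the type I receptor kinase that Tgfbr2 activates. Its TPM was 12.65, 17.79, 14.42, 19.04 and 17.05 in OKS + DsRed and 19.63, 20.28, 21.80, 25.57 and 10.20 in OKS + FoxO6. OKS + FoxO6 was higher on 4 of 5 days, and its day 7 library was the lowest of all 10. The log2 fold change between the arms was 0.25 (SE 0.176, adjusted p = 0.403 in edgeR), and that of day 7 against day 0 was -0.19 (SE 0.281, adjusted p = 0.702). On CPM the counting interval of the ratio excluded 1 on day 3 alone, at 1.62 (1.17 to 2.27). The 2 signalling receptors differed in level by more in OKS + FoxO6. In mean TPM over the 5 days, Tgfbr2 was at 89.1 in OKS + DsRed and 265 in OKS + FoxO6, and Tgfbr1 was at 16.2 and 19.5.

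Tgfbr3 (ENSMUSG00000029287), also known as betaglycan, is a co-receptor that presents ligand to Tgfbr2 and lies at 107106570 to 107289629 of chromosome 5 (minus strand). Its TPM was 3.57, 3.45, 0.91, 2.33 and 0.80 in OKS + DsRed and 6.02, 4.10, 1.86, 1.22 and 0.56 in OKS + FoxO6. The values at day 7 rest on 2 and 3 expected counts, and the highest count was 40 at day 0 in OKS + FoxO6. The OKS + DsRed value at day 5 rests on 1 expected count and an estimated effective length of 626. The direction between the arms depended on the unit on 2 days. It was -0.585 in log2(TPM + 1) and 1.07 in log2 CPM at day 5, and -0.21 and 0.46 at day 7. In both arms the day 0 and day 1 libraries were above the later ones. With no filter on low counts, the log2 fold change of day 7 against day 0 was -3.33 (SE 0.748, adjusted p = 0.000134 in edgeR), and that between the arms was 0.69 (SE 0.458, adjusted p = 0.558). In the other settings that kept the gene the first of these stayed called, with an adjusted p of at most 0.0161. No difference between the arms was detectable at this depth on any day, with a counting interval from 0.473 to 179 at day 5.

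**Figure D3:**
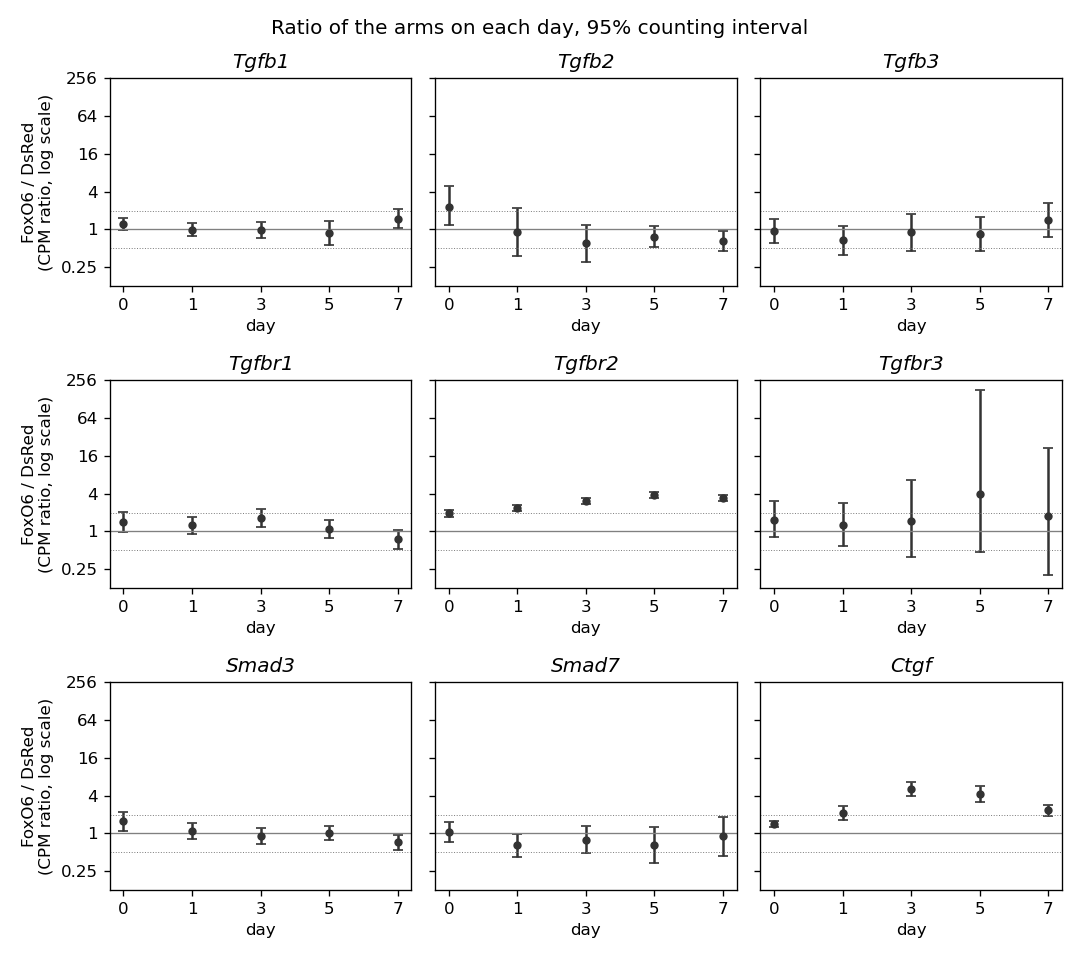
Ratio of the arms in CPM, OKS + FoxO6 over OKS + DsRed, on a log axis, against day for the 9 genes, where points are the ratio of 1 library to 1 library and bars are 95% exact binomial intervals of counting error. Dotted lines mark 2-fold in either direction. The intervals of Tgfbr2 and Ctgf lie above 1 on all 5 days, while that of Tgfbr3 at day 5 reaches 179.

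Beside the test over days, each day was read alone, with a gene called past 2-fold where the difference in log2(TPM + 1) was over 1. This reading has no replicates and no test, and its background is the share that passed in either direction among the 14837 genes of mean TPM 1 or more. At day 0, Tgfbr2 alone of the 9 passed, against 16.7% of all genes, while in log2 CPM it was at 0.95, under 2-fold, and Tgfb2 was at 1.09. At day 1, Tgfb2, Tgfbr2 and Ctgf passed, against 17.3%, and Tgfb2 did so in TPM and not in CPM. Tgfbr2 and Ctgf passed on days 3, 5 and 7, against 19.9%, 21.5% and 24.5% of all genes. In all of these the OKS + FoxO6 library was the higher one. A count of 2 of 9 genes on days 3, 5 and 7 is close to the share of all genes, and so is 1 of 9 at day 0.

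The Smad genes did not pass the test between the arms. Smad3 (ENSMUSG00000032402), at 63646767 to 63757994 of chromosome 9 (minus strand), carries the signal of the receptors into the nucleus. Its TPM was 18.63, 24.53, 29.35, 35.90 and 33.50 in OKS + DsRed and 37.98, 23.70, 24.87, 35.02 and 19.10 in OKS + FoxO6. The OKS + FoxO6 library was the highest of the 10 at day 0 in TPM, and OKS + DsRed had the higher TPM on the other 4 days. The log2 fold change between the arms was 0.02 (SE 0.163, adjusted p = 0.947 in edgeR) and that of day 7 against day 0 was 0.31 (SE 0.258, adjusted p = 0.454). On CPM the ratio was 1.56 at day 0 (counting interval 1.11 to 2.22) and 0.722 at day 7 (0.546 to 0.951), and in between it was 1.10, 0.908 and 1.02, with intervals that held 1. The change of the difference per day was -0.12 on the log2 scale, with an adjusted p = 0.212 in edgeR.

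Smad7 (ENSMUSG00000025880), the inhibitory Smad that blocks the type I receptor and is itself induced by TGF beta, fell over the course. Its TPM was 18.73, 20.06, 14.89, 7.73 and 7.19 in OKS + DsRed and 27.22, 11.54, 12.17, 5.72 and 7.07 in OKS + FoxO6. The 4 libraries of days 5 and 7 were below the 6 earlier ones, in both arms. The log2 fold change of day 7 against day 0 was -2.10 (SE 0.315, adjusted p = 0.000711 in edgeR), a 4.30-fold lower level. Between the arms it was -0.31 (SE 0.197, adjusted p = 0.346), with OKS + FoxO6 lower on 4 of 5 days. On CPM the counting interval of the ratio excluded 1 at day 1 alone, where it was 0.648 (0.421 to 0.990).

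The target gene Ctgf fell between day 0 and day 7, taken over both arms, and was higher in OKS + FoxO6 on each day. Ctgf (ENSMUSG00000019997), at 24595442 to 24598683 of chromosome 10 (plus strand), encodes connective tissue growth factor, a secreted matrix protein that TGF beta induces through Smads and that YAP and TEAD factors induce as well. Its TPM was 299.3, 46.36, 38.70, 36.23 and 64.58 on the 5 days in OKS + DsRed, and 469.2, 104.8, 198.6, 159.9 and 149.6 in OKS + FoxO6. The day 0 libraries were the highest 2 of the 10, and after day 0 all 4 OKS + FoxO6 libraries were above all 4 OKS + DsRed libraries. The shift between the arms was 1.40 on the log2 scale (SE 0.236, adjusted p = 0.00327 in edgeR), or 2.63-fold. Among all genes tested, 119 had a higher shift. Without the day term in the model it was 1.05 and was not called (adjusted p = 0.504, the highest over 10 alternatives, of which the lowest gave 8.81e-19), and with each day left out in turn it lay between 1.19 and 1.67 and was called each time (adjusted p between 0.00078 and 0.0179).

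In CPM the ratio of Ctgf between the arms was 1.41, 2.10, 5.05, 4.25 and 2.34 in the order of the days. The counting interval at day 3 (3.90 to 6.65) lay above those of day 0 (1.26 to 1.57), day 1 (1.61 to 2.76) and day 7 (1.92 to 2.88). The ratio was thus largest in the middle of the course, and a steady change per day was not called, at 0.13 on the log2 scale (adjusted p = 0.367 in edgeR). Without day 7 that value was 0.36 and passed the threshold (adjusted p = 0.043, against up to 0.995 in the other settings). Between day 0 and day 1 Ctgf was 7.32-fold lower in OKS + DsRed (counting interval 5.77 to 9.37) and 4.89-fold lower in OKS + FoxO6 (4.19 to 5.73). From day 1 to day 3 it was 1.99-fold higher in OKS + FoxO6 (1.68 to 2.37), and in OKS + DsRed the ratio was 0.828 (0.590 to 1.16). Over both arms day 7 was 4.01-fold below day 0, a log2 fold change of -2.00 (SE 0.361, adjusted p = 0.00228).

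**Figure D4:**
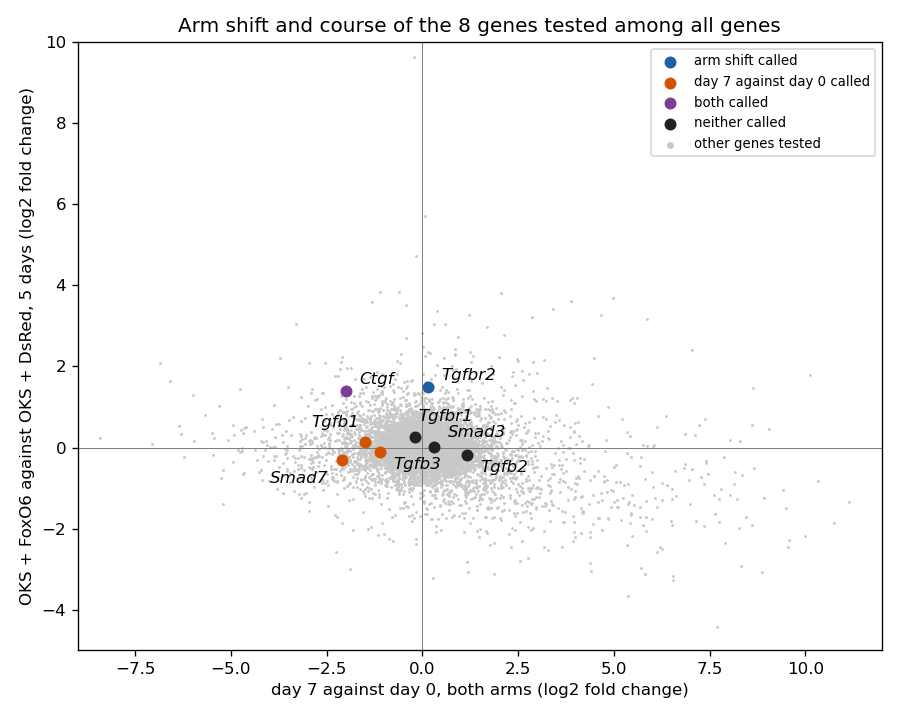
Log2 fold change between the arms over 5 days (vertical axis) against log2 fold change of day 7 against day 0 (horizontal axis), from edgeR, for the 10977 genes tested in grey and 8 of the 9 genes in colour by which test called them. Tgfbr2 sits at 1.50 and 0.16, Ctgf at 1.40 and -2.00, and the other 6 lie between -0.31 and 0.25 on the vertical axis.

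The genes whose course was most like that of each gene were found by Pearson's r of log2(TPM + 1) over the 10 libraries, among the 11422 genes of mean TPM 5 or more. For Tgfbr2 they were Pros1 (r = 0.985), Sema6d (0.98) and Aplp2 (0.979). For Ctgf they were Fhl2 (0.939), Abcf2 (0.933) and Pgd (0.931), and for Tgfb1 they were Kctd11 (0.967), Dlk1 (0.966) and Tpm2 (0.964). Smad7 was followed by Nrp1 (0.965), Tnfaip1 (0.948) and Ncs1 (0.944), and Tgfb3 by Col6a3 (0.964), Loxl1 (0.955) and Pde4a (0.952). For Tgfbr1 they were Rad54l2 (0.956), Elf4 (0.946) and Nup98 (0.936), and for Smad3 they were Ino80 (0.945), Casp8ap2 (0.931) and Npat (0.922). For Tgfb2 they were Abcc4 (0.945), Mcu (0.941) and Gm12840 (0.941), and for the sparsely read Tgfbr3 they were Nadk (0.962), Pea15a (0.953) and Cobll1 (0.952). Within the 9 genes, r was 0.932 for Tgfb1 with Smad7, 0.808 for Tgfb3 with Tgfbr3 and -0.77 for Tgfb1 with Tgfb2. These are descriptions over points that share their library, depth and day.

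The other genes of the pathway were read in 6 lists, by their counts against the background given above. These lists, like the genes described above, were chosen with earlier results of these data known. Their counts beside the background are therefore descriptions and not an independent comparison. Over all genes tested, the median log2 fold change was -0.02 between the arms and 0.03 for day 7 against day 0. Of 32 TGF beta target genes, 26 entered the test. Of these 6 were higher in OKS + FoxO6 and 2 were lower, with a median log2 fold change of 0.26, and 21 fell from day 0 to day 7 and none rose, with a median of -1.80. The list shares Acta2, Tagln and Cnn1 with the smooth muscle markers and Col1a1, Col1a2 and Col3a1 with the fibroblast markers, so fewer fibroblasts and lower levels of these genes within them cannot be told apart.

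In that list the largest falls were Tagln (log2 fold change -8.42), Acta2 (-6.29), both contractile proteins of the myofibroblast, and Lox (-5.68), which cross-links collagen (adjusted p between 1.05e-06 and 2.71e-06 in edgeR). Acta2 went from a TPM of 3227 at day 0 to 29.3 at day 7 in OKS + DsRed and from 3673 to 58.4 in OKS + FoxO6. Between the arms, Nox4 (1.25, SE 0.341, adjusted p = 0.0332), an NADPH oxidase, Junb (0.84, SE 0.162, adjusted p = 0.00667), an AP-1 subunit, and Lox (0.80, SE 0.150, adjusted p = 0.00552) were higher in OKS + FoxO6 in edgeR. The lower ones were the transglutaminase Tgm2 (-1.86, SE 0.368, adjusted p = 0.00757) and the collagen gene Col3a1 (-0.64, SE 0.153, adjusted p = 0.0191). Tgm2 had a TPM of 17.9 to 36.7 in OKS + DsRed and 2.82 to 18.0 in OKS + FoxO6, so the list did not shift one way. The calls of Nox4 and Col3a1 were lost without day 1, day 3 or day 5, that of Nox4 also with an offset for transcript length (0.85, adjusted p = 0.111), and those of Junb, Lox and Tgm2 held without each day. The number of target genes called higher was 3 without day 3, 2 without day 5, 3 with an offset for transcript length, 10 with no filter on low counts and 1 without the day term. Without that term no gene of the other 5 lists was called.

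Cnn1 and Myl9 were among the 6 target genes that did not enter the test, and they are named here after their values were seen. Myl9, a myosin light chain, went from a TPM of 463.2 at day 0 to 1.93 at day 7 in the OKS + DsRed course and from 550.1 to 2.09 in the OKS + FoxO6 course. Cnn1, calponin, was at 67.3 and 41.3 at day 0, and at day 7 it was listed at 0 in OKS + DsRed and at 1.02 in OKS + FoxO6. These 2 genes are not in the count of 21 above.

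Of 15 genes that hold TGF beta latent or activate it, 11 entered the test, and 4 were higher and 1 was lower in OKS + FoxO6, with a median of 0.45. Thbs1, thrombospondin, which activates latent TGF beta, had a shift of 1.45 (SE 0.280, adjusted p = 0.0066 in edgeR). Its TPM was 790, 82.4, 29.6, 19.9 and 25.8 in OKS + DsRed and 1345, 131.8, 197.8, 96.5 and 56.9 in OKS + FoxO6, so OKS + FoxO6 was the higher of the pair on each day. The protease Furin, which cuts the ligand precursors (0.55, adjusted p = 0.00708), and the latent TGF beta binding protein Ltbp3 (0.51, adjusted p = 0.0223) were higher as well, while Ltbp4 was lower (-0.85, adjusted p = 0.0235). The calls of Ltbp3 and Ltbp4 were lost without day 1, day 3 or day 5, and those of Thbs1 and Furin held without each day. From day 0 to day 7, 7 of the 11 fell and none rose, with a median of -0.995, led by Thbs1 (-4.77), the microfibril gene Fbn1 (-2.02) and Lrrc32 (-1.96), which tethers latent ligand to the cell surface. Without day 3 or without day 5 the count called higher between the arms was 2.

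Of 19 Smads and their regulators, all entered the test, and 3 were higher and none was lower in OKS + FoxO6, with a median of 0.13. These were the ubiquitin ligase Smurf2 (0.77, adjusted p = 0.0116), the corepressor Tgif1 (0.68, adjusted p = 0.0395) and the type I receptor binding protein Fkbp1a (0.46, adjusted p = 0.0435). The count higher was 1 without day 1, 0 without day 3, 2 without any other day and 1 with an offset for transcript length. Smurf2 was lost without day 3 and with the offset, Tgif1 in DESeq2 and without day 0, day 1 or day 3, and Fkbp1a with the offset and without each day but day 0. The count lower was 2 without day 0 and 1 with no filter on low counts. The genes that fell from day 0 to day 7 were 3, namely Pmepa1 (-1.65), Smurf1 (-1.02) and Skil (-0.83), against a list median of -0.39, and Skil was lost in DESeq2 (adjusted p = 0.0926).

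Of 9 co-receptors and other type I and II receptors, 5 entered the test. Endoglin (Eng) was lower in OKS + FoxO6 (-0.81, SE 0.190, adjusted p = 0.0168 in edgeR), none was higher, and none was called for day 7 against day 0, with list medians of 0.04 and 0.11. The Eng call was lost without day 1, day 3 or day 5 and with an offset for transcript length. Of 14 activins, nodal, GDF ligands and their antagonists, 7 entered the test, and Gdf11 (1.19, adjusted p = 0.0038) and Dcn (1.15, adjusted p = 0.00831), the proteoglycan decorin that binds TGF beta, were higher, with a median of 0.37. Of the 7, 4 fell from day 0 to day 7, led by the activin subunit gene Inhba (-6.36), Bgn (-5.48) and the activin antagonist Fst (-3.84), and none rose, with a median of -1.01. Gdf3, a ligand of pluripotent cells that did not enter the test and is named after its values were seen, had a TPM of 0, 0, 5.31, 41.03 and 55.8 in OKS + DsRed, against 0, 0.59, 2.49, 11 and 30.84 in OKS + FoxO6. The late libraries were the highest in both arms.

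Ctgf is a target of YAP and TEAD too, and 13 of the 14 listed YAP and TEAD target genes entered the test. In OKS + FoxO6, 3 were higher and none was lower, with a median of 0.19. The receptor kinase gene Axl (1.34, SE 0.107, adjusted p = 5.94e-05 in edgeR), Crim1 (1.35, SE 0.154, adjusted p = 0.00034) and the Hippo kinase gene Lats2 (0.68, SE 0.129, adjusted p = 0.00615) made up this count, which was 5 without day 7. Axl had a TPM of 253.7, 232.2, 150.2, 110.9 and 82.1 in OKS + DsRed, against 595.5, 532, 454, 347 and 184 in OKS + FoxO6. From day 0 to day 7, 8 of the 13 fell and none rose, with a median of -1.12, led by F3 (-4.77), Cyr61 (-1.97) and Amotl2 (-1.72).

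**Figure D5:**
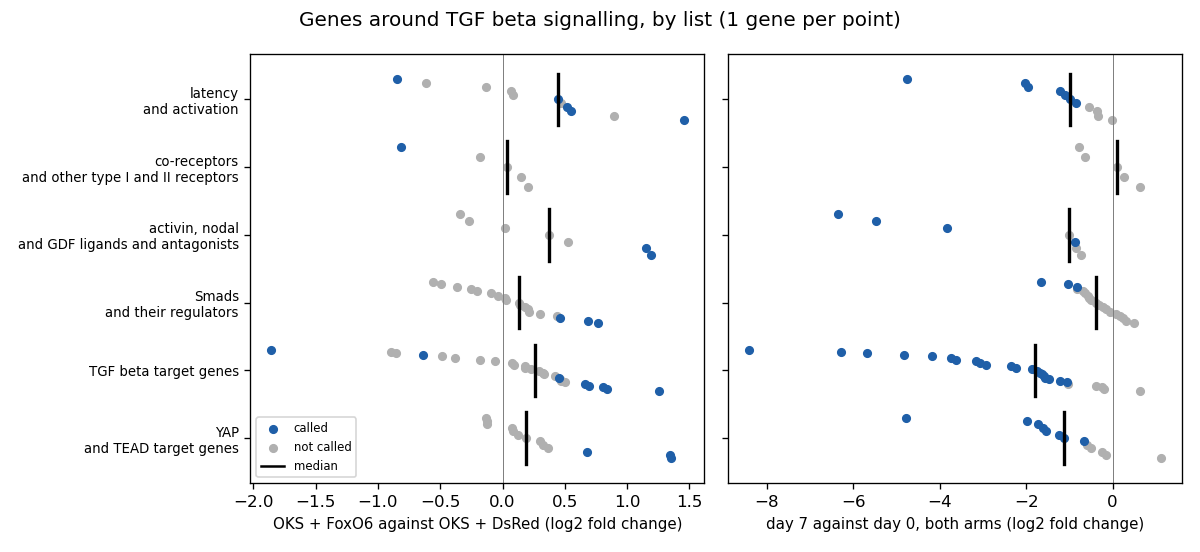
Log2 fold change between the arms (left) and of day 7 against day 0 (right) on the horizontal axes, from edgeR, for the genes tested in each of 6 lists of the pathway on the vertical axis. Points are genes, blue where called, and black bars are medians. The medians for day 7 against day 0 run from -1.80 in the TGF beta target genes to 0.11 in the other receptors, and those between the arms run from 0.04 to 0.45.

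Markers of cell types moved with the arms and with the days. The summed TPM of 6 smooth muscle markers ran from 4562 at day 0 to 56.9 in OKS + DsRed and from 5081 to 86.8 in OKS + FoxO6, and 4 to 6 of them were above 0. The sum of 9 pluripotency markers reached 346.1 in OKS + DsRed and 77.3 in OKS + FoxO6, and that of 9 epithelial markers reached 792 and 209.3. The sum of 7 endothelial markers was 22.2 to 57.2 and 32.7 to 142.6, with Tek as its main part (16.8 to 47.3 and 27.6 to 103.7), 3 to 7 of the 7 above 0 and Emcn at 0 in all OKS + DsRed libraries. That of 7 macrophage markers was 15.1 to 59.6 and 23.9 to 29.4, led by Cd68, with 3 to 6 of them above 0 and Ptprc at most at 0.6. The part of these shifts in the levels of Tgfbr2, Ctgf and the other genes was not tested.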

How the data were processed

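MEFs in OKS + DsRed and OKS + FoxO6 were sampled on days 0, 1, 3, 5 and 7, with 1 library each, grouped by their titles. The sample labels name a VAHTS kit and the study's methods a TruSeq kit. The authors aligned reads with bowtie2 and RSEM to GENCODE M13 (mm10). The deposited expected counts are RSEM estimates without normalization, and the deposited TPM values come from the same RSEM runs. Counts in the table of all genes and in the files per library were identical, and 2124 genes found only in the latter (at most 0.312% of a library) were not used. How reads shared by similar genes are split, and the transcript length estimated in each library, can change TPM.

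Expected counts were rounded and tested with edgeR 4.0.16 (R 4.3.3), with TMM, filterByExpr by arm, day as a factor, 4 residual degrees of freedom and Benjamini-Hochberg adjustment over all genes tested. The change of the arm difference per day added an arm by day term (3 residual degrees of freedom). The SE is the size of the log2 fold change divided by the root of F. On simulated data for the shift between the arms (10855 genes), 97 of 100 genes changed 4-fold and 77 of 100 changed 2-fold were recovered, with 11 false calls. For day 7 against day 0 (10873 genes) these were 93, 42 and 12, and for an arm by day change (10863 genes) 96, 55 and 7. The simulation gave all genes the same spread (dispersion), with independent libraries and no course over the days beyond the planted change. Its figures therefore do not give the recovery or the false calls of the tests on the real libraries. Per-day differences used log2(TPM + 1), which understates changes of low genes. Python 3.11.15 with numpy 2.4.6, pandas 2.3.3 and scipy 1.17.1 did the rest. Alternatives were RLE size factors, DESeq2 1.42.0, no filter, no day term, a length offset, each day left out, a pseudocount of 0.1, CPM, centring and TPM filters. Removal of the length trend was chosen after seeing the data. Named genes are the 9 members, up to 3 called genes per list, test and direction, and the 3 genes most like each member. The members and lists were chosen with earlier results of these data known. Coordinates are those of GENCODE M21, and promoter sequences came from a table of RefSeq starts (GRCm38.p6), in which 5 of the 9 genes were matched, and those of Tgfb3, Tgfbr3, Smad7 and Ctgf were not used here. Some genes of the lists are not reported here.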

Additional observations from a re-analysis of the deposited data

Results flagged for a closer look

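In 4 of the 81 genes of the lists that were tested, the difference between the arms changed over the course, by a test of that change (the arm by day term in edgeR's quasi-likelihood test). All 4 were increases, where over all genes 1.21% were called for an increase and 0.765% for a decrease. For Col1a2, a chain of type I collagen, the log2 difference grew by 0.36 per day (adjusted p = 0.00212). Its TPM was 1615, 1538, 1255, 374.1 and 261.5 on days 0, 1, 3, 5 and 7 in OKS + DsRed, against 1336, 1048, 1444, 1119 and 757.6 in OKS + FoxO6, so OKS + FoxO6 was lower on days 0 and 1 and higher from day 3 on. This call held in all 8 alternatives (adjusted p between 3.47e-20 and 0.00869).

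For Cyr61, a matrix protein of the same family as Ctgf, it grew by 0.29 per day (adjusted p = 0.0167), and the call was lost without day 0 (adjusted p = 0.194, the highest over the alternatives, with 1.52e-05 the lowest). Its TPM was 301.3, 66.1, 43.4, 26.8 and 41.5 in OKS + DsRed, against 186, 63.4, 80.2, 56 and 87.8 in OKS + FoxO6. For Dcn, the proteoglycan decorin, it grew by 0.24 per day (adjusted p = 0.0279). This call was lost in DESeq2 and without day 0, day 1 or day 7 (adjusted p over all alternatives between 0.00106 and 0.141). The TPM of Dcn was 95.8, 113.1, 41.2, 37.2 and 30.9 in OKS + DsRed, against 128.4, 168, 125.4, 123.4 and 106.6 in OKS + FoxO6. For Cdkn1a, the cell cycle inhibitor p21, it grew by 0.16 per day (adjusted p = 0.0388), and the call was lost without day 0, day 1, day 3 or day 7 (adjusted p over all alternatives between 0.0018 and 0.286). The TPM of Cdkn1a was 674.3, 860.3, 791.2, 549.85 and 415 in OKS + DsRed, against 513.4, 747.4, 933.2, 711.3 and 614.1 in OKS + FoxO6. OKS + FoxO6 was thus lower on days 0 and 1 and higher from day 3 on.

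Dcn and Col1a2 are among the 11 fibroblast markers. The other 9 had a summed TPM of 3738 at day 0 in OKS + DsRed, against 3371 in OKS + FoxO6, and of 495.4 at day 7, against 310.3, so their sum was lower in OKS + FoxO6 at both ends of the course. At day 7, 3 of these 9 were higher in OKS + FoxO6 and 6 were lower. With Col1a2 and Dcn the sum at day 7 was 787.8, against 1175.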

How the results depend on the processing

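The shift of Tgfbr2 between the arms and the falls of Tgfb1, Smad7 and Ctgf were called in all alternatives run for them, and that of Ctgf between the arms in all but the model with no day term. Tgfb2 at day 1 reversed, from 1.29 in log2(TPM + 1) to -0.12 in log2 CPM, where counts were equal and estimated lengths were not. For day 7 against day 0, Tgfb2 was called with no filter (1.15, adjusted p = 0.0145, with a range over alternatives of 0.0145 to 0.194). Over all genes, 761 were called higher between the arms and 783 lower. These counts were 1148 higher with no filter, 124 higher and 44 lower with no day term, and 366 to 812 higher and 297 to 813 lower with a day left out. For the change per day, 133 genes were called for an increase and 84 for a decrease. There were 87 increases with DESeq2, 319 increases and 309 decreases with no filter, and 44 to 111 increases and 28 to 122 decreases with a day left out. The causes of these differences in count were not tested. The model pairs the arms by day, and the values with no day term are those without that pairing. Depth limits Tgfbr3 most, with 1 to 40 expected counts per library.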
